A study of Mus musculus with 12 samples.

Results

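Bnc1, Stra6, Clec3b, Tenm4, Apod, Acpp and Cd34 are 7 genes that fibroblasts express and that were picked, with these libraries in view, as lower where a muscle-determining factor was introduced. They were found by symbol in both deposited gene tables and are 7 of 37287 gene identifiers, 32610 of which carry a symbol. They were chosen by their levels in CPM (counts per M counts of a library) with MyoD, Myf5 and GFP virus, so those differences are given as a description and support nothing. A label of repressed genes holds for all 7 with both factors against 1 control only, the GFP virus at a series of doses. Of the 7, 3 (Apod, Acpp and Cd34) were not called lower with either factor than in cells that received no virus when all libraries were fitted by group, and the set is therefore named below by its members.

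The cells were M&M MEFs, mouse embryonic fibroblasts labelled MyoD-/-; Myf5-/-, so every library, controls included, comes from cells labelled as lacking both muscle-determining genes. They spent 24 h with lentivirus and polybrene and then 20 h in differentiation medium before poly(A) RNA was sequenced, 1 library per condition. The controls were a GFP virus at a multiplicity of infection (MOI, virus particles per cell) of 15, 30, 60 or 120 (the MOI series), the GFP virus at a dose named 1x (1x GFP), and cells labelled NV, without virus. MyoD and Myf5 viruses were each used at 1x and 2x, which gives groups of 2 libraries that differ in dose. A second table holds 1 library with a virus named Chimera (1x Chimera) and 1 with a second batch of MyoD virus that was balanced against it (1x MyoD_B). How 1x relates to the MOI series, the makeup of the Chimera protein and the share of cells that took up virus are not given in the sources used here, and no condition is labelled as repeated in another culture. The p-values of the group comparisons below therefore measure the spread between these libraries, with dose inside it. The fits of dose and of MOI slope take dose as a term. With a dose term in the fit, a factor set against a control is valued at 1x, not over both doses. Where each dose of a factor was its own group, the spread came from the MOI series alone. RNA came from whole cultures, so fewer cells that express a gene and less RNA per cell cannot be told apart.

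Depth was 68.3 to 81.5 M counts (M, mega) in the 6 libraries of 1x GFP, NV, MyoD and Myf5, 17.9 to 22.4 M in the MOI series, and 25.1 and 23.7 M in 1x Chimera and 1x MyoD_B. Myod1 stood at 309 CPM (1x) and 617 CPM (2x) in the MyoD libraries and at 5.31 to 5.99 CPM in the controls. Myf5 stood at 149.5 CPM (1x) and 249 CPM (2x) in the Myf5 libraries and at 17.25 to 24.4 CPM in the controls. The controls thus held reads of both genes, which goes against a full absence of both transcripts, and whether the reads come from a part left in the alleles was not tested. The summed level of 11 fibroblast markers was 20140 to 21246 CPM in the 6 control libraries, 15058 and 11013 CPM in 1x and 2x MyoD, and 17175 and 14407 CPM in 1x and 2x Myf5. That of 8 skeletal muscle markers was 2.23 to 3.31 CPM in the controls, 751 and 2362.5 CPM with MyoD, and 27.6 and 105 CPM with Myf5. With MyoD against 1x GFP, 9 of the 11 fibroblast markers were called lower by the edgeR test described below, where 15.4% of all genes were. Against NV 7 were called lower with MyoD (18.1% of all genes). With Myf5, 0 were called lower against 1x GFP (0.152% of all genes) or NV (9.15%). Against the MOI series 7 were called lower with MyoD (29.5% of all genes) and 4 with Myf5 (17.9%), with 1 called higher each time. The part of both marker lists in the differences of the 7 genes was not tested.

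MyoD and Myf5 are basic helix-loop-helix transcription factors that bind the DNA letters CANNTG, and they are known for turning fibroblasts towards skeletal muscle. The 7 genes share no pathway. Bnc1 encodes a zinc-finger transcription factor of epithelia and germ cells, Stra6 the cell-surface receptor that takes up retinol from its carrier protein, and Tenm4 a teneurin, a large membrane protein of cell adhesion. Clec3b encodes tetranectin, a secreted lectin that binds plasminogen, and Apod the secreted lipid carrier apolipoprotein D. Acpp encodes prostatic acid phosphatase, which in its membrane form splits extracellular nucleotides, and Cd34 a sialomucin of blood progenitors, endothelium and connective-tissue fibroblasts.

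**Figure D1:**
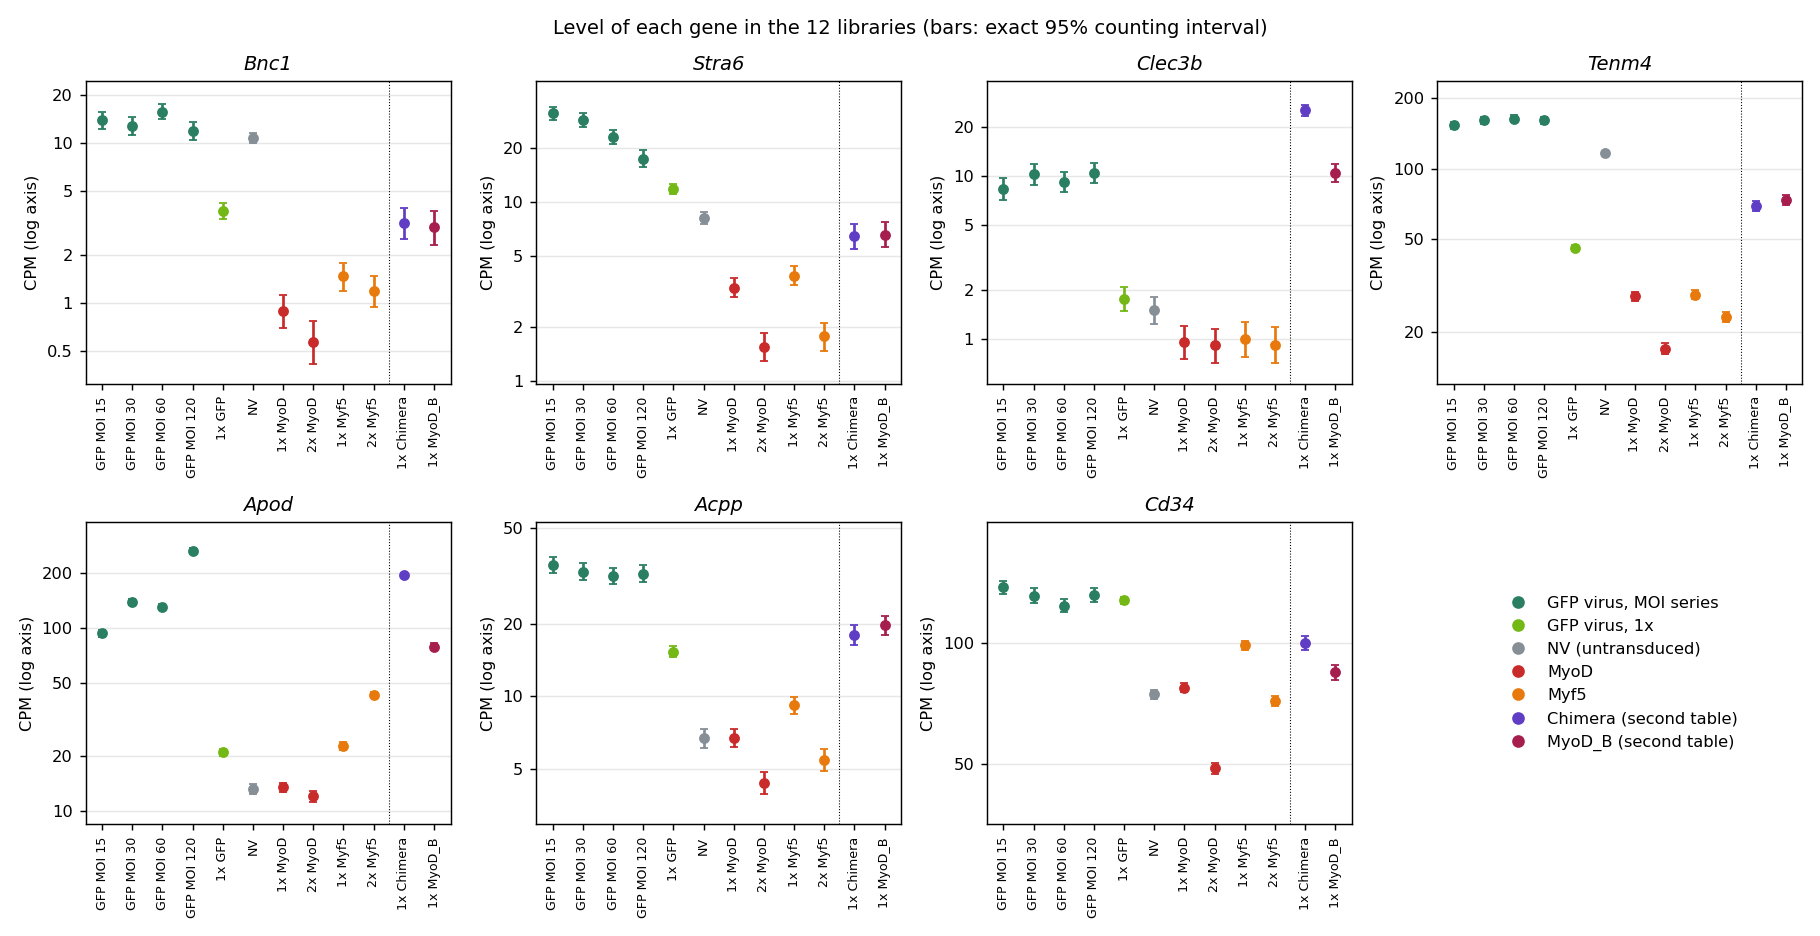
Level of each gene in CPM on a log axis (vertical) in the 12 libraries (horizontal), with exact 95% counting intervals as bars; colours mark the groups and the dotted line separates the second table. Bnc1 and Tenm4 were nearly as high in NV as in the MOI series and low in 1x GFP, while Clec3b and Apod stood at 8.31 CPM or more and 93.2 CPM or more in the MOI series and far below in 1x GFP and NV.

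Each difference was taken from 1 edgeR quasi-likelihood fit of the 10 libraries of the first table (two-sided, 13825 genes, Benjamini-Hochberg adjusted over all of them). A gene is called where the adjusted p is under 0.05. 1x GFP and NV are single libraries and were assumed to vary like the groups with several libraries. With MyoD against 1x GFP, 6 of the 7 genes were called lower, where 15.4% of all genes were called lower. Against the MOI series it was 7 of 7 (29.5% of all genes), and against NV 4 of 7 (18.1% of all genes). With Myf5, 1 of 7 was called lower against 1x GFP (0.152% of all genes), 7 of 7 against the MOI series (17.9%) and 2 of 7 against NV (9.15%). The median log2 difference of the 7 genes with MyoD was -1.01 against 1x GFP, -3.29 against the MOI series and -0.67 against NV, where the median of all genes was -0.008, -0.015 and 0.009. With Myf5 it was -0.90, -2.57 and -0.66, beside -0.005, 0.001 and 0.007 over all genes. Because these contrasts chose the genes, the counts are not read against the background. With the MOI libraries left out of the fit, which leaves 2 residual degrees of freedom, edgeR called none of the 7 against 1x GFP (6 with MyoD and 5 with Myf5 had an unadjusted p under 0.05). It called 0 of all genes in these 2 comparisons as well (4124 and 1212 had an unadjusted p under 0.05), so the loss says nothing particular of the 7. The log2 differences stayed, at -2.34 for Bnc1 and -2.27 for Stra6 with MyoD. Myf5 against 1x GFP gave 5 calls with DESeq2, the added ones being Stra6, Clec3b, Tenm4 and Acpp. All genes called there in either direction were 758 with DESeq2 and 163 in the edgeR fit of the 10 libraries. The gain in calls was therefore not particular to the 7.

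**Figure D2:**
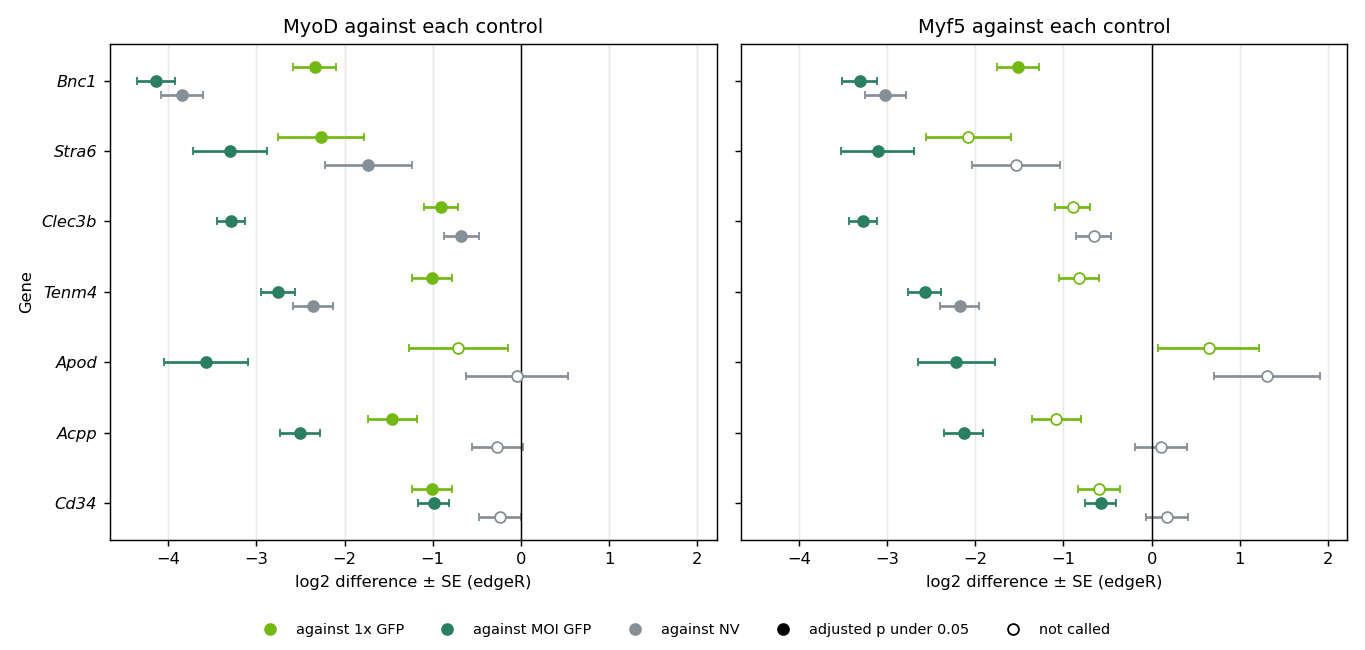
The log2 difference of each gene (rows) with MyoD (left) and Myf5 (right) against 1x GFP, the MOI series and NV, with standard errors (SE) as bars; filled points have an adjusted p under 0.05. The points against the MOI series lie furthest left for every gene except Cd34, and the NV points of Apod, Acpp and Cd34 sit near 0 or to its right.

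Bnc1 was the member called in every one of these 6 comparisons. It stood at 13.8, 12.8, 15.6 and 11.9 CPM at an MOI of 15, 30, 60 and 120, at 3.74 CPM in 1x GFP and at 10.7 CPM in NV. With MyoD it stood at 0.894 CPM (1x) and 0.573 CPM (2x), from 72 and 44 counts, and with Myf5 at 1.46 CPM (1x) and 1.18 CPM (2x). All 4 libraries with a factor lay below all 6 controls, and the intervals of 1x and 2x overlapped within each factor. MyoD was 5.06-fold below 1x GFP (log2 -2.34, SE 0.24, edgeR adjusted p = 0.00147), 17.6-fold below the MOI series and 14.4-fold below NV. Myf5 was 2.85-fold below 1x GFP (log2 -1.51, SE 0.24, edgeR adjusted p = 0.0293) and 8.12-fold below NV. The call with Myf5 against 1x GFP rests on the libraries in the fit: it was lost when any 1 of the 4 MOI libraries or the 2x Myf5 library was left out. Bnc1 was also the 1 member called between the factors (8.74% of all genes were called lower with MyoD), at log2 -0.83 (SE 0.23, edgeR adjusted p = 0.0391) with MyoD below Myf5, and over the alternatives that adjusted p ran from 0.00798 to 0.211. With a dose term in the fit, Acpp (log2 -0.37, edgeR adjusted p = 0.0127) and Cd34 (log2 -0.43, edgeR adjusted p = 0.00178) were also called lower with MyoD than with Myf5.

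Bnc1 marks mesothelium as well as epithelia. Of 6 mesothelial markers, Wt1 had no count in any of the 12 libraries, and the summed level was at most 3.66 CPM in any of them. In the first table Msln, encoding mesothelin, made up much of that sum. It stood at 2.63 to 3.29 CPM in the MOI series, 2.78 CPM in NV, 0.638 CPM in 1x GFP and 0.459 to 0.949 CPM with the factors. In that table Msln thus stood high and low in the same libraries as Bnc1. In the second table Msln stood at 0.877 CPM in 1x Chimera and 2.70 CPM in 1x MyoD_B, where Bnc1 was nearly level (3.15 and 2.96 CPM). The part of Msln in the Bnc1 difference was not tested. The summed level of 7 epithelial markers was 0.818 to 3.6 CPM over the 12 libraries.

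Tenm4 followed Bnc1 closely, at a Pearson r of 0.991 of log2(CPM + 1) over the 10 libraries, a description in which the points share the 2 blocks of depth. It stood at 153, 161, 164 and 161 CPM along the MOI series, 45.7 CPM in 1x GFP and 117 CPM in NV. Its level was 28.5 and 17.0 CPM in 1x and 2x MyoD and 28.9 and 23.3 CPM in 1x and 2x Myf5. In the first table the libraries of the 2 factors were all below all controls, with 1x MyoD and 1x Myf5 almost level. MyoD was 2.01-fold below 1x GFP (log2 -1.005, SE 0.23, edgeR adjusted p = 0.0138) and 5.13-fold below NV (log2 -2.36, SE 0.22). Myf5 was 4.52-fold below NV (log2 -2.18, SE 0.22, edgeR adjusted p = 0.00109) and 1.77-fold below 1x GFP, which was not called (edgeR adjusted p = 0.132).

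Bnc1 and Tenm4 were the 2 members called lower in 1x GFP than in NV, by 2.85-fold (log2 -1.51, SE 0.27, edgeR adjusted p = 0.0176) and 2.56-fold (log2 -1.35, SE 0.27, edgeR adjusted p = 0.0274), where 3.37% of all genes were called lower. In the MOI series they were 1.22-fold and 1.32-fold above NV and not called (edgeR adjusted p = 0.302 and 0.180), though Tenm4 was called there when either MyoD library was left out. The controls thus put these genes in the order MOI series, NV, 1x GFP. The call of Tenm4 between 1x GFP and NV was lost without the MOI 15, MOI 30 or MOI 60 library, with the log2 difference at -1.35 each time.

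The promoter of Bnc1 is shown because this gene fell against every control. The 250 bases before its RefSeq start (GRCm38.p6, chr7:81992300-81992549, minus strand) hold 83.6% G and C, against 53.2% over 32851 promoter windows, and no CANNTG on either strand.
Bnc1: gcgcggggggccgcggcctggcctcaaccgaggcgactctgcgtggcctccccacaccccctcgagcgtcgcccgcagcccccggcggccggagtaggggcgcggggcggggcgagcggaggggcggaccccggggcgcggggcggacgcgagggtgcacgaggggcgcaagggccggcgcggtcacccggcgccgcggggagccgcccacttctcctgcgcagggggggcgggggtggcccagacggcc
CANNTG reads the same on both strands and occurs in 66.2% of all windows of this length, CAGCTG, 1 form of it, in 13.0%. A match is a description and not a binding site, and its absence says only that these letters are not in this window. The windows of Acpp and Cd34 hold no CANNTG either, and the 2 RefSeq start windows of Tenm4 hold 1 and 3. The bases just after the Bnc1 start and the first Tenm4 start were not found in GENCODE vM21 transcripts of these genes. Both windows therefore rest on RefSeq alone. Clec3b was not in the promoter table.

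Stra6 was highest in the MOI series and lowest at 2x of each factor. It stood at 31.1, 28.6, 22.97 and 17.4 CPM at an MOI of 15, 30, 60 and 120, at 11.8 CPM in 1x GFP and at 8.10 CPM in NV. With MyoD it stood at 3.31 CPM (1x) and 1.55 CPM (2x), and with Myf5 at 3.87 CPM (1x) and 1.77 CPM (2x). No library with a factor overlapped the controls in the first table, and at equal dose the 2 factors gave overlapping counting intervals. MyoD was 4.82-fold below 1x GFP (log2 -2.27, SE 0.48, edgeR adjusted p = 0.0114) and 3.31-fold below NV (log2 -1.73, SE 0.49, edgeR adjusted p = 0.0262). Myf5 was 4.22-fold below 1x GFP and 2.90-fold below NV, neither of which was called (edgeR adjusted p = 0.0919 and 0.0664). Without 2x MyoD the MyoD call against NV was lost (log2 -1.30).

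Stra6 is shown with its promoter because its first window holds CAGCTG, in capitals, at position -51 from the start (RefSeq, GRCm38.p6, chr9:58128838-58129087, plus strand).
Stra6: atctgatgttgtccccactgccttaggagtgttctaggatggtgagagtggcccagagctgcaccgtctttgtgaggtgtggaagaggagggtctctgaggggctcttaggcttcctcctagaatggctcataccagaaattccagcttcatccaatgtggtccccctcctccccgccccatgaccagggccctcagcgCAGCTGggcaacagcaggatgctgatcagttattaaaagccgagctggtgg
RefSeq lists 4 start windows for this gene, with 1, 2, 0 and 3 CANNTG, and CAGCTG is in 3 of them.

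Of 24 genes written as retinoid uptake and signalling, 16 passed the filter on low counts, and with MyoD against 1x GFP 2 were called higher (15.1% of all genes) and 5 lower. The median log2 difference of the 16 was -0.04. Dhrs3, which reduces retinal back to retinol, was 2.69-fold lower (log2 -1.43, SE 0.19, edgeR adjusted p = 0.00342), and it was also 2.01-fold below NV. Rarg, a retinoic acid receptor, was 1.78-fold lower (log2 -0.83, SE 0.16), and against NV it was at log2 -0.42 and not called (edgeR adjusted p = 0.0714). Of 10 genes written as teneurins and their partners, 8 passed the filter, of which 3 were called higher and 1 lower. Dag1, the dystroglycan precursor, was 2.69-fold higher (log2 1.43, SE 0.21), and Adgrl2, a latrophilin receptor that binds teneurins, 1.70-fold higher (log2 0.77, SE 0.14), with Tenm4 itself lower in the same libraries. Of 11 genes written as basonuclin and epithelial transcription factors only 4 passed the filter, and 2 were lower: Klf4 by 2.15-fold and Bnc2, the other basonuclin, by 1.60-fold.

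Clec3b was low in all 6 deeply sequenced libraries of the first table. It stood at 8.31, 10.2, 9.21 and 10.4 CPM along the MOI series, and at 1.77 CPM in 1x GFP and 1.499 CPM in NV. It stood at 0.956 and 0.911 CPM in 1x and 2x MyoD and at 0.996 and 0.920 CPM in 1x and 2x Myf5, from 63 to 77 counts each. The 4 libraries with a factor have overlapping counting intervals, and all are below NV. MyoD was 1.88-fold below 1x GFP (log2 -0.91, SE 0.19, edgeR adjusted p = 0.0112) and 1.60-fold below NV (log2 -0.67, SE 0.20, edgeR adjusted p = 0.0296), but 9.76-fold below the MOI series. Myf5 was 1.86-fold below 1x GFP and 1.58-fold below NV, neither called (edgeR adjusted p = 0.0756 and 0.0559). Clec3b passed the filter through the controls, since it was under 1 CPM with both factors in the first table. The call of MyoD against NV was lost without MOI 60 (log2 -0.67) or with a dose term, which sets MyoD at 1x (log2 -0.64). Without 2x MyoD the value was log2 -0.66.

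Most of the Clec3b difference from the MOI series was therefore also present between the controls. The MOI series was 5.19-fold above 1x GFP (log2 2.38, SE 0.20, edgeR adjusted p = 6e-04) and 6.12-fold above NV (log2 2.61, SE 0.20, edgeR adjusted p = 9.83e-05). Of 13 genes written as the plasminogen system, 8 passed the filter, and with MyoD against 1x GFP 1 was called higher and 3 lower. Plau, the urokinase that activates plasminogen, was 2.37-fold higher (log2 1.25, SE 0.22) and its receptor gene Plaur 2.03-fold lower (log2 -1.02, SE 0.20). Plau was likewise 2.55-fold higher with Myf5 against 1x GFP (log2 1.35, SE 0.22, edgeR adjusted p = 0.0309).

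Apod varied most between the controls. It stood at 93.2, 139, 131 and 265 CPM along the MOI series, 20.8 CPM in 1x GFP and 13.1 CPM in NV. It stood at 13.4 and 11.95 CPM in 1x and 2x MyoD and at 22.5 and 43.2 CPM in 1x and 2x Myf5. The MyoD libraries of the first table are level with NV, and both Myf5 libraries are above 1x GFP and NV. MyoD was 11.9-fold and Myf5 4.65-fold below the MOI series (log2 -3.57, SE 0.48, and log2 -2.22, SE 0.44). Neither was called against 1x GFP, where MyoD was at log2 -0.71 (SE 0.56, edgeR adjusted p = 0.364) and Myf5 at log2 0.65 (SE 0.58, edgeR adjusted p = 0.602). Against NV they were at log2 -0.05 (SE 0.58) and 1.31 (SE 0.60). With all 5 GFP libraries pooled as the control, MyoD was called 9.80-fold lower and the sign of the Myf5 value turned to log2 -1.94.

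Apod is shown with its promoter as the member whose controls lay furthest apart. The 250 bases before its start (RefSeq, GRCm38.p6, chr16:31314809-31315058, minus strand) hold 36.4% G and C and 1 CANNTG, in capitals, at position -173 from the start.
Apod: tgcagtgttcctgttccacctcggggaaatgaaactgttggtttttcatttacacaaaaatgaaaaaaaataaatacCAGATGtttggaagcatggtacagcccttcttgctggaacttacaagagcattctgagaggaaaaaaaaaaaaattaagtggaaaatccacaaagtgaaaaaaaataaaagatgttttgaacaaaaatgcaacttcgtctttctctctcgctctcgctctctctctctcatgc

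Interferon-stimulated genes were high in many of the libraries where Apod was high. The summed level of 15 such genes was 1943, 2867, 3210 and 5158 CPM along the MOI series, 334 CPM in 1x GFP and 285 CPM in NV. It was 419 and 379 CPM in 1x and 2x MyoD and 998 and 3277 CPM in 1x and 2x Myf5. The sum was higher at 2x than at 1x Myf5, as Apod was, and was lowest in the 4 libraries where Apod was lowest. The 2x Myf5 library is apart from this order, with an interferon sum like that of MOI 60 and Apod at 43.2 against 131 CPM. The part of the interferon genes in the Apod differences was not tested.

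**Figure D3:**
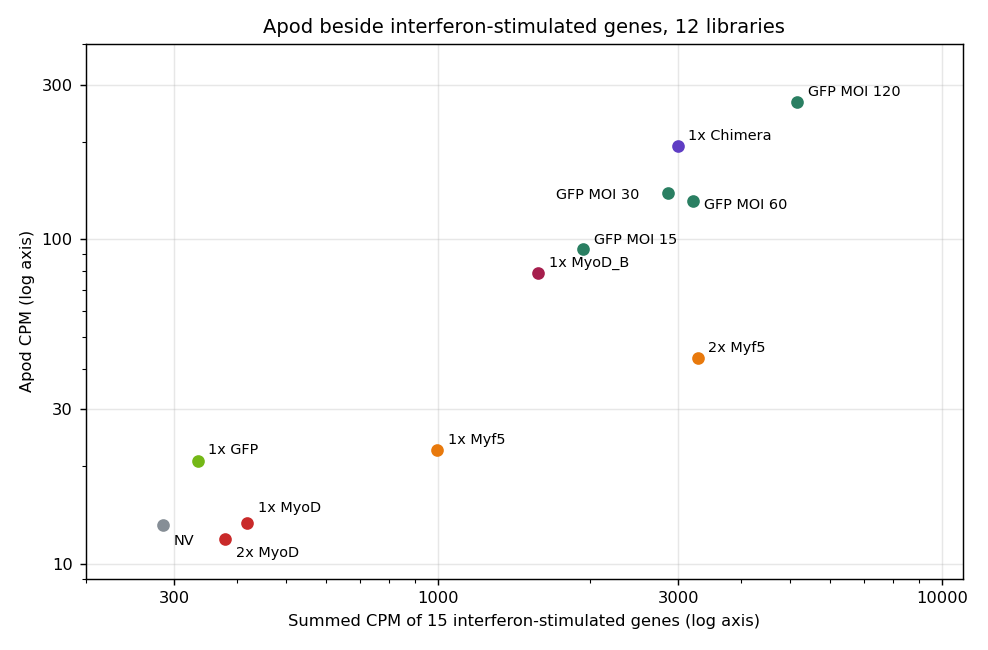
Apod in CPM (vertical, log axis) against the summed CPM of 15 interferon-stimulated genes (horizontal, log axis), 1 point per library in the 12 libraries. NV, 1x GFP and both MyoD libraries lie at the lower left, MOI 120 at the upper right, and 2x Myf5 lies below the other libraries of like interferon sum.

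Of 11 genes written as lipocalins and lipid carriers, 9 passed the filter, and with MyoD against 1x GFP 1 was called higher and 3 lower. Ptgds, a lipocalin that makes prostaglandin D, rose from 0.331 CPM in 1x GFP to 9.51 and 14.7 CPM in 1x and 2x MyoD (log2 5.195, SE 0.44, edgeR adjusted p = 0.000749). Lcn2, an iron-siderophore carrier, was 3.68-fold below 1x GFP with MyoD (log2 -1.88, SE 0.27) but 2.37-fold above NV (log2 1.24, SE 0.32, edgeR adjusted p = 0.0182), so its direction turned with the control.

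Acpp stood at 35.1, 32.9, 31.5 and 32.3 CPM along the MOI series, 15.3 CPM in 1x GFP and 6.70 CPM in NV. Its level was 6.73 and 4.37 CPM in 1x and 2x MyoD and 9.18 and 5.45 CPM in 1x and 2x Myf5. The NV library lies inside the range of the libraries with a factor, and 1x MyoD and NV have overlapping counting intervals. MyoD was 2.75-fold below 1x GFP (log2 -1.46, SE 0.28, edgeR adjusted p = 0.00796) and 5.69-fold below the MOI series. Against NV the log2 difference was -0.27 (SE 0.29, edgeR adjusted p = 0.513) with MyoD and 0.11 (SE 0.30, edgeR adjusted p = 0.835) with Myf5. With a dose term, which sets Myf5 at 1x, Acpp was called higher with Myf5 than in NV (log2 0.40, edgeR adjusted p = 0.0347). The 2x Myf5 library lay below NV. The 1x GFP library was 2.29-fold above NV (log2 1.19, SE 0.34, edgeR adjusted p = 0.0839), a difference that was called without either MyoD or either Myf5 library. Of 16 genes written as acid phosphatases and ectonucleotidases, 11 passed the filter, and with MyoD against 1x GFP 1 was called higher and 4 lower. Acp2, the lysosomal acid phosphatase, was 1.62-fold lower with MyoD (log2 -0.70, SE 0.08) and 1.38-fold lower with Myf5 (log2 -0.46, SE 0.08, edgeR adjusted p = 0.0327). Adora1, an adenosine receptor, was the 1 called higher (log2 7.76, SE 1.37, a fitted value that depends on very low control counts).

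Cd34 was the member whose GFP controls lay closest together. It stood at 137, 131, 123 and 131 CPM along the MOI series and 127 CPM in 1x GFP, but at 74.5 CPM in NV. Its level was 77.2 and 48.8 CPM in 1x and 2x MyoD and 98.3 and 71.5 CPM in 1x and 2x Myf5. The NV level lies among those of the factors, and every library with a factor is below every GFP library. MyoD was 2.01-fold below 1x GFP (log2 -1.01, SE 0.23, edgeR adjusted p = 0.0144) and 1.99-fold below the MOI series. Against NV it was at log2 -0.24 (SE 0.24, edgeR adjusted p = 0.468), and Myf5 at log2 0.18 (SE 0.24, edgeR adjusted p = 0.672). Both rest on the fit. Without 1x MyoD, MyoD was at log2 -0.58 against NV. With a dose term, which sets Myf5 at 1x, Myf5 was called above NV (log2 0.43, edgeR adjusted p = 0.00909). The 2x Myf5 library lay below NV. With Myf5 the call against the MOI series (log2 -0.58, SE 0.17, edgeR adjusted p = 0.0311) was lost without any 1 of the 4 MOI libraries and without 2x Myf5.

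Cd34 is also a marker of endothelium and blood progenitors, whose defining genes were near 0. Ptprc reached 0.0894 CPM, Kit 0.0245 CPM, Pecam1 0.336 CPM and Cdh5 0.481 CPM at most in any library. The summed level of 7 endothelial markers was 2.19 to 10.7 CPM and that of 6 blood-cell markers 1.35 to 3.11 CPM. In the first table the endothelial sum was 7.53 to 10.7 CPM with the factors, mostly Vwf, and 2.19 to 5.63 CPM in the controls. It was 3.73 CPM in NV, where Cd34 was also low, and 4.73 CPM in 1x MyoD_B. The part of these genes in the Cd34 differences was not tested. Of 14 genes written as Cd34 relatives and genes of adventitial progenitors, 12 passed the filter, and with MyoD against 1x GFP 3 were called higher and 6 lower. Sema3c, a secreted semaphorin, was 2.41-fold lower (log2 -1.27, SE 0.18) and 1.92-fold below NV. Anxa3, an annexin, was 1.78-fold lower (log2 -0.83, SE 0.14) and 2.10-fold below NV, so these 2 were below both 1x GFP and NV. Of the 12, 5 were called higher and 5 lower with MyoD against NV (17.2% and 18.1% of all genes). With Myf5 against NV, 1 was called higher and 0 lower (7.95% and 9.15% of all genes).

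The controls were compared among themselves, since their libraries are those the differences above rest on. The MOI series was called above 1x GFP in 5 of the 7 genes (12.1% of all genes), all except Stra6 (log2 1.03, SE 0.47, edgeR adjusted p = 0.143) and Cd34 (log2 -0.02, SE 0.22). The Acpp call there was lost without any 1 of the MOI libraries (log2 1.02 to 1.07). It was called above NV in 5 of the 7 (18.2% of all genes), all except Bnc1 and Tenm4. The largest of these differences was that of Apod, 11.5-fold above NV (log2 3.52, SE 0.65, edgeR adjusted p = 0.00412). Acpp was 4.74-fold and Stra6 2.97-fold above NV (log2 2.24, SE 0.30, and log2 1.57, SE 0.49). Cd34 was 1.69-fold above NV (log2 0.75, SE 0.23, edgeR adjusted p = 0.0323), and this call, like that of Stra6, was lost without the MOI 15, MOI 30 or MOI 60 library, the Cd34 call also without MOI 120. The MOI libraries hold fewer counts than 1x GFP and NV, and depth and the MOI series cannot be told apart. The members were picked for a high level with GFP virus, which holds the MOI libraries, so these counts too are a description.

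Dose was not itself used to pick the genes. In a fit with a term for 2x over 1x common to both factors (4 residual degrees of freedom), 4 of the 7 genes were called lower at 2x, where 3.34% of all genes were called lower. Stra6 was 2.13-fold lower (log2 -1.09, SE 0.27, edgeR adjusted p = 0.0438), Acpp 1.58-fold (log2 -0.66, SE 0.09, edgeR adjusted p = 0.00543), Cd34 1.45-fold (log2 -0.54, SE 0.06, edgeR adjusted p = 0.00436) and Tenm4 1.42-fold (log2 -0.50, SE 0.09, edgeR adjusted p = 0.0147). These 4 were lower at 2x with both factors. Bnc1 (log2 -0.43, SE 0.19, edgeR adjusted p = 0.200) and Clec3b (log2 -0.07, SE 0.19) were not called. Of the 11 fibroblast markers, 6 were likewise called lower at 2x in this fit (median log2 -0.38, beside -0.505 for the 7 genes). The fibroblast marker sum was lower and the muscle marker sum higher at 2x than at 1x with each factor, and their part in the dose difference was not tested. The levels at 2x entered the group means that picked the genes, so the dose difference is not wholly independent of that choice. With Myf5 alone the log2 difference was -1.12 for Stra6, -0.74 for Acpp, -0.45 for Cd34 and -0.30 for Tenm4. With MyoD alone it was -1.06 for Stra6. Each of these values compares single libraries, so calls are not given.

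Whether the dose difference differed between the factors cannot be decided here. The fit for it, which also gave the values with MyoD alone and Myf5 alone, took each 1x and 2x library as its own group. It thus compared single libraries, with the spread taken from the MOI series alone (3 residual degrees of freedom). The largest difference by its test was that of Tenm4 (log2 -0.41, SE 0.10, edgeR adjusted p = 0.221), whose level was 1.68-fold lower at 2x than at 1x with MyoD and 1.24-fold lower with Myf5. Apod was lower at 2x than at 1x with MyoD and higher with Myf5, and the test of that difference gave log2 -1.08 (SE 0.85, edgeR adjusted p = 0.704). The other 5 genes had unadjusted p-values of 0.160 or more.

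Along the MOI series a slope on log2 MOI was fitted (13383 genes, 2 residual degrees of freedom). Stra6 fell by 0.27 on the log2 scale per doubling of MOI (SE 0.04, edgeR adjusted p = 6.36e-05), where 3.42% of all genes had a falling slope that was called. Apod rose by 0.46 per doubling (SE 0.05, edgeR adjusted p = 1.38e-05), where 4.06% had a rising one. Both slopes were called without any 1 of the 4 libraries, and that of Apod was smallest, 0.23, without MOI 120. The slopes of the other 5 genes lay between -0.04 and 0.08 and were not called. Stra6 thus was lower at higher dose of the GFP virus as well as at higher dose of both factors, while all 4 MOI libraries stayed above 1x GFP, NV and the factor libraries.

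**Figure D4:**
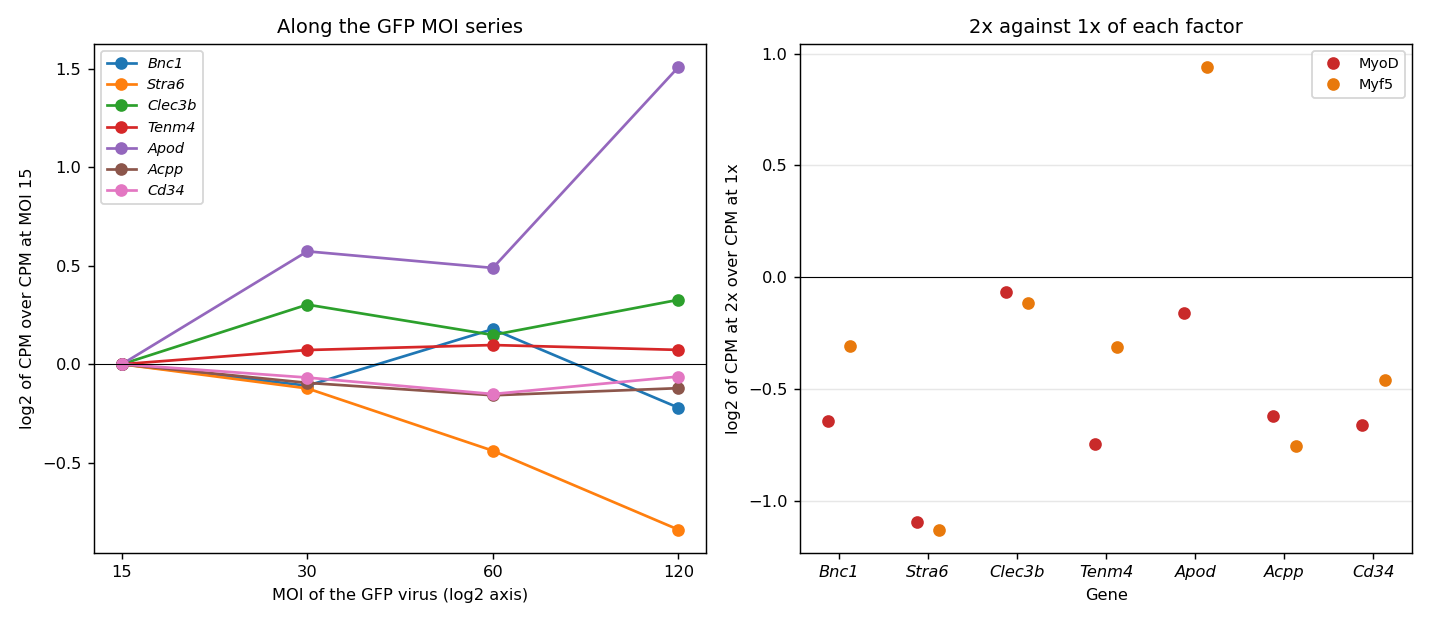
Left, log2 of CPM over CPM at MOI 15 (vertical) along the MOI of the GFP virus (horizontal, log2 axis), 1 line per gene; right, log2 of CPM at 2x over CPM at 1x (vertical) for each gene with MyoD and Myf5. Stra6 lies below 0 throughout both panels, and Apod is the 1 gene whose points for the 2 factors lie on opposite sides of 0.

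The second table has no control library, so its 2 libraries were set against each other with counting intervals and no test. Clec3b stood at 25.2 CPM in 1x Chimera and 10.4 CPM in 1x MyoD_B, a ratio of 2.43 (95% interval 2.09 to 2.83, counting error only). Apod stood at 194.5 and 78.9 CPM, a ratio of 2.46 (2.34 to 2.60). These were the 2 of 7 members at least 2-fold higher with Chimera, where 2.68% of 13412 genes were. Cd34 was 1.18-fold higher (1.11 to 1.25), at 99.7 and 84.4 CPM. For Bnc1 (3.15 and 2.96 CPM), Stra6 (6.42 and 6.55 CPM), Tenm4 (69.3 and 73.4 CPM) and Acpp (17.9 and 19.7 CPM) the interval of the ratio held 1. The interferon sum was 2991 CPM with Chimera and 1583 CPM with MyoD_B, beside Apod, and its part was not tested. The fibroblast marker sum was 20110 and 15163 CPM and the muscle marker sum 892 and 2493 CPM.

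All 7 genes were higher in 1x MyoD_B than in 1x MyoD of the first table, the same factor from another virus batch. The share of all genes that were higher there was not computed, so the common direction is not read as particular to the 7. The tables differ in their processing and their controls, so levels are set side by side without a test. The total of 1x MyoD_B includes 4.18% mitochondrial counts, which are at 0 in the first table. Without them in the total, Clec3b in 1x MyoD_B was 10.8 CPM in place of 10.4 CPM. The ratios below keep them. The ratio of CPM was 10.9 for Clec3b, 5.90 for Apod, 3.31 for Bnc1, 2.93 for Acpp, 2.58 for Tenm4, 1.98 for Stra6 and 1.09 for Cd34. Set against the median of the MOI series, 1x MyoD_B had 0.222 of its Bnc1, 0.254 of its Stra6 and 0.456 of its Tenm4 level, but 1.07 of its Clec3b level. Depth was 23.7 M counts in MyoD_B, near that of the MOI series, and 80.6 M in 1x MyoD. Clec3b thus was above 8 CPM in all 6 libraries of lower depth and below 2 CPM in all 6 of higher depth, and depth, table and virus batch cannot be told apart here.

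Pairs of members correlated over the 10 libraries of the first table at a Pearson r of 0.717 (Bnc1 and Apod) to 0.991 (Bnc1 and Tenm4), with all 7 picked for the same contrast. The genes closest to each member were taken from 10835 genes with a mean of at least 5 CPM. Those for Bnc1 were Zfp827 (r = 0.997) and Arhgap42 (r = 0.991), and those for Tenm4 Osr2 (r = 0.996) and again Zfp827 (r = 0.995). Osr2, an odd-skipped transcription factor, stood at 69.7 to 73.0 CPM along the MOI series, 33.7 CPM in 1x GFP, 55.2 CPM in NV and 16.5 to 24.8 CPM with the factors, the order of Tenm4. For Apod they were H2-T10, a class I histocompatibility gene (r = 0.995), and Ccl11, the chemokine eotaxin (r = 0.992). Ccl11 stood at 44.8, 53.2, 62.9 and 118 CPM along the MOI series and at 6.27 to 19.2 CPM in the other 6 libraries.

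For Stra6 the closest genes were Ubtf (r = 0.987) and Rgma (r = 0.986), for Clec3b Dnmt3a (r = 0.994) and Sox12 (r = 0.992), for Acpp Atp2b1 (r = 0.991) and Qsox2 (r = 0.988), and for Cd34 Ces1a (r = 0.990) and Arsa (r = 0.989). Dnmt3a, a DNA methyltransferase gene, stood at 31.6 to 34.2 CPM along the MOI series and 15.0 to 17.8 CPM in the other 6 libraries of that table, so it separates the same libraries as Clec3b by a smaller factor. Closest to the mean of all 7 were Il11ra2 and Gm13305 (both r = 0.996), whose levels were nearly the same in every library so that their reads may be shared, and Smarcd2 (r = 0.995), a chromatin remodelling subunit. These r values describe 10 libraries that fall into blocks of depth and virus.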

How the data were processed

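Poly(A) RNA was sequenced in 12 libraries, per the labels. The submitters' processing notes name CASAVA 1.8.2, TopHat2 2.0.8 and mm9; how the authors counted reads per gene is not given. The first deposited table (10 libraries) holds expected counts, not whole for 1982 to 2767 genes a library, which were rounded. The second deposited table (2 libraries) holds whole counts. Because the 37 mitochondrial genes are at 0 in the first and take 4.05% and 4.18% of the second, no fit joined both.

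The 7 genes, the gene lists and the tests were chosen with earlier results of these data known. Symbols came from GENCODE vM21 names, and 1 written retinoid symbol (Rbpr2) had no match. edgeR 4.0.16 in R 4.3.3 (quasi-likelihood, TMM, genes reaching a CPM of 1 in 2 or more libraries) fitted the 10 libraries in 5 groups, at 5 residual degrees of freedom. Standard errors were derived from the F statistic. The script was tested on simulated data. Named list genes are the 2 of smallest p in MyoD against 1x GFP among those called. Similar genes rank by Pearson r of log2(CPM + 1). CPM intervals are exact Poisson, ratios exact binomial at 95%, and cover counting error only. No library copied another of its group (chi-square over genes, divided by its degrees of freedom, 1.92 to 73.6). Alternatives were DESeq2 1.42.0, no filter, other scaling and library sets.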

Additional observations from a re-analysis of the deposited data

How the results depend on the processing

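Over 1197 values of the 7 genes under alternatives, 1077 kept their direction and their side of the threshold, 54 lost a call, 47 gained one and 19 changed sign, none of them called in either fit. In edgeR on the 6 deeper libraries alone, with 2 residual degrees of freedom, 0 of the 7, and 0 of all genes, were called in MyoD against 1x GFP, Myf5 against 1x GFP, Myf5 against NV, MyoD against Myf5 and 1x GFP against NV (6, 5, 4, 2 and 2 of the 7 had an unadjusted p under 0.05), and 2 of the 7 in MyoD against NV, where 1527 genes in all were called; fewer libraries leave fewer degrees of freedom. Myf5 against 1x GFP gave 2 calls with no filter, 5 with DESeq2, 4 with a dose term, and 5 with all 5 GFP libraries as control. All genes called there in either direction were 263, 758, 453 and 843, beside 163 in the edgeR fit by group. DESeq2 gave 4 calls in 1x GFP against NV (1252 of all genes, beside 683 by group in edgeR). The dose term gave 3 in MyoD against Myf5, namely Bnc1, Acpp and Cd34 (4658 of all genes, beside 2682). The cause was not tested for these.

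Leaving out 1 MOI library gave 0 to 2 calls in MyoD against Myf5 (1343 to 2210 of all genes, beside 2682 by group). It gave 1 to 2 in 1x GFP against NV (366 to 600 of all genes, beside 683). In MyoD against NV it gave 3 to 4 (4044 to 4639, beside 4885), and in MOI GFP against NV 3 to 4 (4145 to 4585, beside 5176). All-gene counts are in either direction. Fits without a MyoD or Myf5 library leave 1 library in that group, and their counts are not given here. The count in Myf5 against 1x GFP was 0 without any 1 MOI library, where 47 to 84 of all genes were called in either direction. Without 2x Myf5, Bnc1 stood there at log2 -1.37. In each of these comparisons fewer of all genes were called without an MOI library than in the fit by group. In MyoD against Myf5 it was 0 without MOI 15, MOI 30, MOI 60, 2x MyoD or either Myf5 library (1 to 3 had an unadjusted p under 0.05).

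Signs turned as follows, on the log2 scale. Cd34 in MOI GFP against 1x GFP was 0.037 with library totals alone, an alternative chosen after seeing the data. Clec3b in MyoD against Myf5 was 0.0050 with unrounded counts, and Acpp in MyoD against NV 0.034 with a dose term, which sets MyoD at 1x. Apod was -0.13 for dose in MyoD alone and -1.94 in Myf5 against all 5 GFP libraries. Over the fits that leave out 1 library, these values crossed 0. In MyoD against Myf5, Stra6 ran from -0.82 to 0.50, Clec3b from -0.066 to 0.063, Tenm4 from -0.58 to 0.0009 without 1x Myf5 and 0.13 without 2x MyoD, and Acpp from -0.70 to 0.066. Against NV, Apod and Cd34 with MyoD ran from -0.11 to 0.017 and from -0.58 to 0.044, and Acpp and Cd34 with Myf5 from -0.32 to 0.44 and from -0.079 to 0.38. Cd34 in MOI GFP against 1x GFP ran from -0.041 to 0.011, and the MOI slopes of Bnc1 and Cd34 from -0.070 to 0.094 and from -0.076 to 0.0048. MyoD and Myf5 share the doses 1x and 2x, and the fit with a dose term carries that match. No paired analysis was possible beyond it because no label names a shared culture, day or batch. Counts of 44 to 100 for Bnc1 and 63 to 77 for Clec3b in the libraries with a factor limit the precision of both.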
